A study of Rattus norvegicus with 10 samples.

Results

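The genes described here are 9 genes that prepare peptides for display on MHC class I molecules, or that stand beside that pathway: Tap1, Tap2, Tapbp, B2m, Psmb8, Psmb9, Psmb10, Nlrc5 and Cd74. They were chosen by symbol, using the symbols that the authors' comparison table gives to gene IDs. The 9 symbols matched 10 of the 23487 gene IDs in the count table, of which 14561 have a symbol. Tap2 stands on 2 IDs. ENSRNOG00000000455, with the higher count, is called Tap2 below, and ENSRNOG00000046031 is called the second Tap2 ID and is uncertain, since counting can split reads between IDs of 1 gene. RNA was sequenced from primary cultures of cortical oligodendrocyte precursor cells (OPCs) of newborn Sprague-Dawley rat pups and of oligodendrocytes (OLs) differentiated from them, in 10 libraries, 2 for each of 5 groups.

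In the OL groups, cells kept in medium with T3, CNTF and N-acetyl cysteine had received 30 nM of a scrambled mimic (miR-ctl), of a miR-145-5p mimic (miR-145), or of the miR-145 and miR-219 mimics together, and were collected 5 days after transfection. In the OPC groups, cells kept in medium with FGF2 and PDGFAA had received 30 nM of an inhibitor of miR-145-5p (anti-miR-145) or of its scrambled control (anti-miR-ctl) and were collected at 24 h. All groups carried a transfected oligonucleotide, and no untransfected group is analysed here. A treatment tag of the OL miR-145 libraries also names miR-219, whereas their titles name miR-145 alone, and the titles were followed. The methods of the study mention a lentivirus for sequenced OLs, but its results and the labels mention mimics, which was followed here. The OPCs had been shaken off mixed glial cultures, which enriches them without removing every other cell. The study defines a replicate of primary culture as a separate culture, the labels of these libraries do not describe the cultures, and p-values measure the spread between 2 libraries.

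MHC class I molecules present fragments of intracellular proteins to CD8+ T cells. The proteasome cuts the proteins, and interferons lead cells to exchange its catalytic subunits for the immunoproteasome subunits Psmb8, Psmb9 and Psmb10. The heterodimer of Tap1 and Tap2 carries the peptides into the endoplasmic reticulum, where tapasin (Tapbp) helps to load them onto a heavy chain bound to beta-2-microglobulin (B2m). Nlrc5 is a transactivator of class I genes, while Cd74 is the invariant chain of MHC class II molecules. Resting cells of the oligodendrocyte lineage are known for low class I expression that interferon raises.

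The inhibitor and the mimic are directed at, or copy, mature miR-145-5p, whose sequence in RefSeq (GRCr8) is shown with its seed (bases 2 to 8) in capitals. The mature miRNA itself was not measured in these libraries.
rno-miR-145-5p: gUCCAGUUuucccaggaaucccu

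RefSeq promoter windows (GRCr8, 250 bases before the annotated start and 50 after it) were found for 8 of the 9 genes. The counts themselves rest on annotation of another build, Rnor6.0. The windows were searched on both strands for GAAA, any 2 bases and GAAA, a core of the interferon-stimulated response element (ISRE) that interferon regulatory factors bind, for the gamma-activated site (GAS) TTCNNNGAA, which reads alike on both strands, for the kappaB site GGG, any 2 bases and TTTCC, and for CCAAT. The windows of 4 genes are shown, picked among those that hold matches: a peptide transporter subunit, a loading chaperone, the light chain and an immunoproteasome subunit. Capitals mark ISRE, GAS and kappaB matches. They are Tap1 (chr20:4668494-4668793, minus strand), Tapbp (chr20:4967828-4968127, minus strand), B2m (chr3:129549080-129549379, plus strand) and Psmb8 (chr20:4656982-4657281, minus strand), each written in the direction of its gene.
Tap1: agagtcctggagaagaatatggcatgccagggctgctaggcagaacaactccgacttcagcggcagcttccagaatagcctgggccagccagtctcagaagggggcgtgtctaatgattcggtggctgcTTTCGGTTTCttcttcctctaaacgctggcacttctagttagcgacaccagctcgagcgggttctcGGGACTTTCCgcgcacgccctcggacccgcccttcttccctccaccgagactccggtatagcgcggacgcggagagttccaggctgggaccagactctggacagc
Tapbp: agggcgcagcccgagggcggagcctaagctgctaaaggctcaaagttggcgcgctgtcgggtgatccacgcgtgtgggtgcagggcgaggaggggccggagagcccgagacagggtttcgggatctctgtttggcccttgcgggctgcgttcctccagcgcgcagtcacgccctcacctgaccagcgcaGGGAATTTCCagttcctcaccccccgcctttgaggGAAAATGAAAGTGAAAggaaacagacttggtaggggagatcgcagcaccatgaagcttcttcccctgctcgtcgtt
B2m: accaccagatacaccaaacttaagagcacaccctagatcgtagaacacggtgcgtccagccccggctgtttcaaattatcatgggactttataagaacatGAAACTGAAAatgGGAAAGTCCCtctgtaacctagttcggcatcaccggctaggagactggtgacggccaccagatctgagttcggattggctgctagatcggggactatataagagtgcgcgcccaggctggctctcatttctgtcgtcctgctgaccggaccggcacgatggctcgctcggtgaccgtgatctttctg
Psmb8: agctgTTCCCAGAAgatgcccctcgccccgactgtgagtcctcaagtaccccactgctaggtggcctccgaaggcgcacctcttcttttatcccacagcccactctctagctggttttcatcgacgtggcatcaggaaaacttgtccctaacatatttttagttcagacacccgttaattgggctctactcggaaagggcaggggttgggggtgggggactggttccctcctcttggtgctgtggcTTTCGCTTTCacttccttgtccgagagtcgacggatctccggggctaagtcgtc

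An ISRE match lay in 6 of the 8 windows (Tap1, Tap2, Tapbp, B2m, Psmb8 and Psmb10), against 3.92% of 33469 rat promoter windows of the same length. In Tap2 it was GAAAGCGAAA and began 41 bases before the start, while Psmb10 held 2 matches and Tapbp 2 that overlap each other. A kappaB match lay in 4 of the 8 (Tap1, Tapbp, B2m and Cd74), against 1.53%, and a GAS match in 1 (Psmb8), against 8.87%. CCAAT lay in 4 of the 8, against 37.5% of all windows. None of the 3 windows of the constitutive counterparts Psmb5, Psmb6 and Psmb7 held an ISRE match, and 3 of 16 windows of class I heavy chain genes did. The windows of Tap1 and Psmb9 overlap on opposite strands. The ISRE match of Tap1, TTTCGGTTTC on the strand shown, lay outside the Psmb9 window, 336 bases before the Psmb9 start. Psmb9, whose window held no ISRE, GAS or kappaB match, had a log2 fold change of -1.82 in OPC anti-miR-145 relative to OPC anti-miR-ctl. Psmb10, with 2 ISRE matches, had -0.50 there. The other genes with an ISRE match lay between these values: Tap1 (-1.04), Tap2 (-0.80), Tapbp (-1.38), B2m (-1.63) and Psmb8 (-1.74). Cd74, whose window held no ISRE match, was not called there. A link between matches and levels was not tested. These matches describe the letters of the windows only, and binding was not measured.

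**Figure D1:**
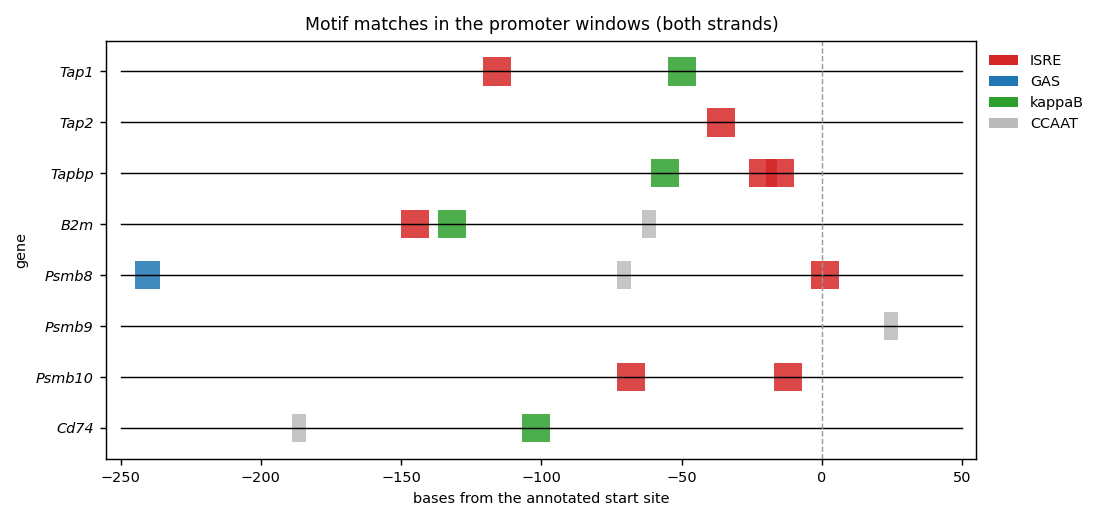
Position of ISRE, GAS, kappaB and CCAAT matches (coloured boxes) in bases from the annotated start site (dashed line), 1 row for each of the 8 genes with a window. ISRE matches appear in 6 rows, and those of Tap1 and B2m lie more than 100 bases before the start, while that of Psmb8 spans the start.

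Library totals ran from 33505706 to 42684206 estimated counts, and levels are given as CPM, the count relative to the library total after TMM scaling over all libraries. The 11 markers of maturing OLs summed to between 15592 and 34191 CPM in the OL libraries and to between 1097 and 1330 CPM in the OPC libraries. The 6 OPC markers were mixed: relative to OPC anti-miR-ctl, Pdgfra (log2 fold change -2.02), Cspg4 (-2.93) and Ptprz1 (-1.09) were called lower in OL miR-ctl, Gpr17 (3.74) and Vcan (0.55) were called higher, and Cacng4 was not called (-0.43, adjusted p = 0.156). The OL libraries also held astrocyte RNA, with 7 markers summing to between 5353 and 13059 CPM against 399 to 664 CPM in OPC libraries. The 15 microglia markers summed to between 462 and 1220 CPM in OL libraries, 1149 and 1496 CPM in OPC anti-miR-145 libraries and 1719 and 1867 CPM in OPC anti-miR-ctl libraries. In such bulk samples, fewer cells of a type and less RNA per cell cannot be told apart, and the part of these cell types in the results below was not tested.

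The question in OPCs was how the transcriptome differed when miR-145 was inhibited. In OPC anti-miR-145 libraries 8 of the 10 gene IDs were lower than in OPC anti-miR-ctl at an adjusted p under 0.05 (edgeR quasi-likelihood test with Benjamini-Hochberg adjustment), each gene except Cd74 being among them by its main ID. Over all 15496 genes tested, 28.1% were called, 16.0% as lower and 12.1% as higher, and 40.9% had an unadjusted p under 0.05, as did 8 of the 10 IDs. The median log2 fold change of the 10 IDs was -1.30, and that of all genes was 0.00. Without an untransfected OPC group, lower levels with the inhibitor and raised levels in its control cannot be told apart. For 9 of the 10 the groups did not overlap and the anti-miR-145 libraries were the lower ones, as for 35.1% of all genes, and for 1 (Cd74) they were the higher ones, as for 32.8%. The number of genes called over the whole table was 4348 with all libraries, 7124 without OPC anti-miR-145 replicate 2, and 2403 and 2502 without replicate 1 or 2 of OPC anti-miR-ctl, whereas 7 to 9 of the 10 IDs were called in any of these fits.

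**Figure D2:**
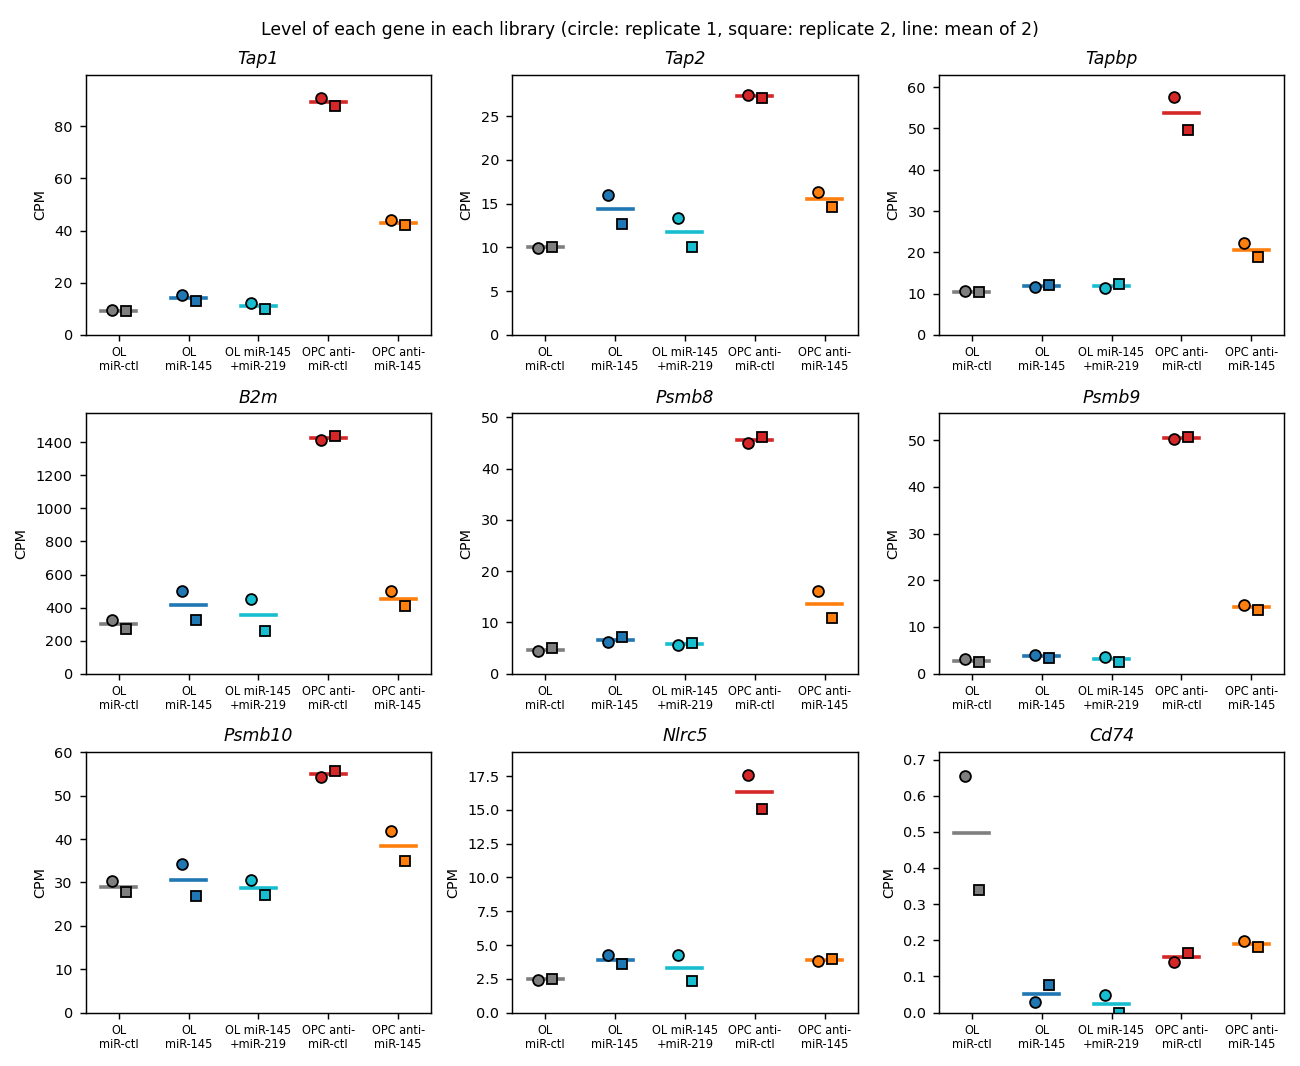
Level in CPM (linear axes that start at 0) of the 9 genes in each of the 10 libraries, by group, with circles for replicate 1, squares for replicate 2 and a line at the mean of 2. Both OPC anti-miR-ctl libraries stand above all others in every panel but that of Cd74, which stays under 1 CPM.

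Among the peptide transport genes, Tap1 (ENSRNOG00000000457), a subunit of the peptide transporter, stood at 91.0 and 87.8 CPM in the OPC anti-miR-ctl libraries and at 44.1 and 42.0 CPM in the anti-miR-145 libraries. Both control libraries were well above both inhibitor libraries, and replicates lay close together. The log2 fold change was -1.04 (SE 0.084, adjusted p = 0.000221), a level 2.06-fold lower. Its partner Tap2 stood at 27.5 and 27.1 CPM in the controls and at 16.4 and 14.6 CPM with the inhibitor, and the groups were again apart. It was 1.74-fold lower (log2 fold change -0.80, SE 0.10, adjusted p = 0.00171). The second Tap2 ID held 80 and 50 counts in the control libraries and 45 and 12 with the inhibitor, and it was not called (adjusted p = 0.151). It was called without OPC anti-miR-145 replicate 1 (log2 fold change -2.56, adjusted p = 0.000961), which was the higher of the inhibitor libraries.

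Tapbp (ENSRNOG00000029500), the loading chaperone tapasin, stood at 57.7 and 49.7 CPM in the OPC anti-miR-ctl libraries and at 22.2 and 18.8 CPM in the anti-miR-145 libraries. The control libraries differed from each other by less than they did from the inhibitor libraries. Tapbp was 2.59-fold lower (log2 fold change -1.38, SE 0.12, adjusted p = 0.000339). B2m (ENSRNOG00000017123), the light chain shared by all classical class I molecules, was at 1413 and 1441 CPM in controls and at 501 and 408 CPM with the inhibitor. No library of one group came near the other group. It was 3.10-fold lower (log2 fold change -1.63, SE 0.12, adjusted p = 0.000162).

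Of the immunoproteasome subunits, Psmb9 (ENSRNOG00000000459) stood at 50.3 and 50.7 CPM in the OPC anti-miR-ctl libraries and at 14.8 and 13.6 CPM with the inhibitor. Psmb8 (ENSRNOG00000000456) stood at 45.0 and 46.3 CPM in the controls and at 16.2 and 10.9 CPM with the inhibitor. Both genes had a tight control pair, and the inhibitor pair was wider apart for Psmb8 than for Psmb9. The log2 fold changes were -1.82 for Psmb9 (SE 0.097, adjusted p = 6.59e-05) and -1.74 for Psmb8 (SE 0.18, adjusted p = 0.000623). Psmb10 (ENSRNOG00000019494) differed least, at 54.4 and 55.7 CPM in the controls and 41.9 and 35.0 CPM with the inhibitor, without overlap. Its log2 fold change was -0.50 (SE 0.11, adjusted p = 0.0168), and without OPC anti-miR-ctl replicate 2 it was no longer called (adjusted p = 0.0587).

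Nlrc5 (ENSRNOG00000048222), the class I transactivator, had the largest fold change of the 10 IDs. It stood at 17.6 and 15.1 CPM in the OPC anti-miR-ctl libraries and at 3.80 and 3.97 CPM with the inhibitor. The groups were far apart and Nlrc5 was 4.16-fold lower (log2 fold change -2.06, SE 0.13, adjusted p = 9.44e-05). Cd74 (ENSRNOG00000018735), the class II invariant chain, was near the limit of detection, with 6 and 6 counts in control libraries and 8 and 8 in inhibitor libraries. A difference was not detectable at this depth (adjusted p = 0.663).

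**Figure D3:**
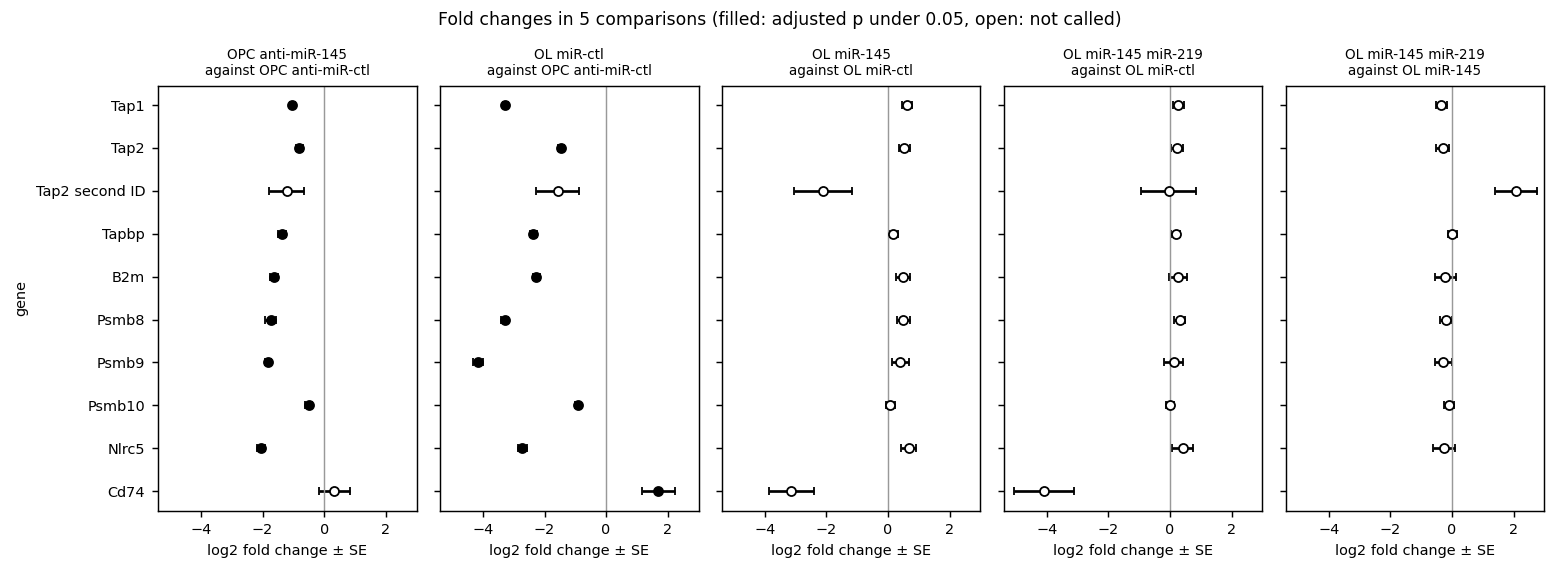
Log2 fold change with its standard error (horizontal axis) of the 10 gene IDs in each of 5 comparisons, with filled points for an adjusted p under 0.05. Filled points lie left of 0 in the OPC panel (8 of 10) and in the panel of OL miR-ctl against OPC anti-miR-ctl (8 of 10, with Cd74 to the right), and none is filled in the 3 panels among OL groups.

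Each immunoproteasome subunit takes the place of a constitutive one, so the ratio of their counts within a library is free of library scaling. The log2 ratio of Psmb8 over Psmb5 was -1.66 and -1.71 in the OPC anti-miR-ctl libraries and -3.73 and -4.03 in the anti-miR-145 libraries. The ratio of Psmb9 over Psmb6 was -1.18 and -1.33 in controls and -3.34 and -3.16 with the inhibitor. The ratio of Psmb10 over Psmb7 was -1.85 and -1.81 in controls and -2.47 and -2.54 with the inhibitor. All 3 ratios were lower in both inhibitor libraries than in either control library. The mean differences were -2.20, -1.99 and -0.68 on the log2 scale, with no test. Psmb5 itself was higher with the inhibitor (log2 fold change 0.44, SE 0.11, adjusted p = 0.0286), while Psmb6 (0.18, adjusted p = 0.322) and Psmb7 (0.17, adjusted p = 0.226) were not called. None of the other 11 subunits of the 20S core was called, and their median log2 fold change was 0.17. The smallest adjusted p among those was 0.0890 for Psmb1 (0.24), followed by Psmb3 (0.28, adjusted p = 0.11).

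**Figure D4:**
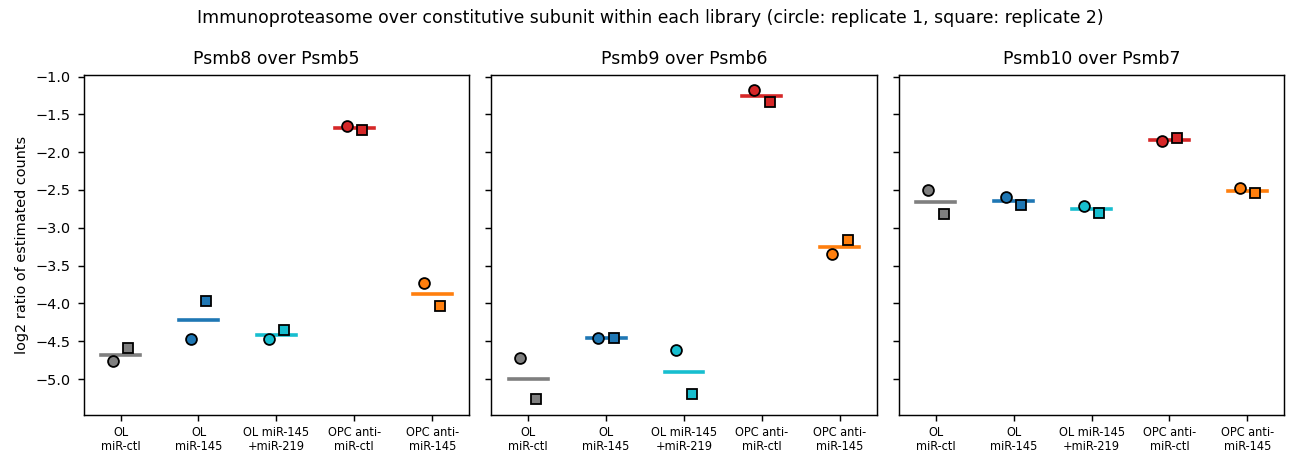
Log2 ratio of estimated counts of an immunoproteasome subunit over its constitutive counterpart (vertical axis) in each library, by group, for the 3 pairs, with a line at the mean of 2. The OPC anti-miR-ctl libraries stand highest in each panel, and for Psmb10 over Psmb7 the anti-miR-145 libraries overlap the range of OL miR-ctl.

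The partners of these genes in the class I pathway were read from lists of symbols. These lists and those below were chosen with earlier results of these data known. Of 18 class I heavy chain genes, named RT1 in the rat, 15 were called lower in OPC anti-miR-145 libraries and none higher, with a median of -1.43. The 4 with the smallest p were RT1-N3 (-2.13, adjusted p = 6.4e-05), RT1-T24-1 (-2.39, adjusted p = 6.77e-05), RT1-S3 (-1.89, adjusted p = 9.37e-05) and RT1-T24-4 (-1.41, adjusted p = 0.000138). Some of these genes have similar sequences, so the split of reads among them is uncertain. RT1-M3-1 (-0.48, adjusted p = 0.143) and the 2 RT1-M6 genes were not called. Of 9 genes for trimming and loading peptides, Erap1, the aminopeptidase that trims them in the endoplasmic reticulum, was lower (-0.99, adjusted p = 0.000274), as was the tapasin-related Tapbpl (-0.44, adjusted p = 0.0182). Sec61a1, a subunit of the translocon (0.42, adjusted p = 0.0120), and Pdia3, a thiol oxidoreductase of the loading complex (0.36, adjusted p = 0.0219), were higher.

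Among 9 IDs of proteasome activators and assembly factors, the interferon-inducible activator subunits Psme1 (-0.51, adjusted p = 0.00942) and Psme2 (-0.76, adjusted p = 0.00408) were lower. The assembly chaperone Psmg3 was higher (0.45, adjusted p = 0.0460), and 6 IDs were not called, with a list median of 0.10. Of 13 symbols of the class II pathway only 4 could be tested, on 5 IDs and with no alpha or beta chain of the presenting class II molecules among them, and 3 of these IDs were called higher. They were RT1-DMb (1.14, adjusted p = 0.00123) and RT1-DMa (1.47, adjusted p = 0.0319), which make up the exchange factor of class II loading, and the protease Ctss (0.72, adjusted p = 0.00674). RT1-DMa has another ID, which was lower in both inhibitor libraries and not called (-0.53, adjusted p = 0.0742). This ID stood at 9.51 and 11.2 CPM with the inhibitor and at 12.4 and 17.9 CPM in controls. The called ID stood at 27.5 and 19.4 CPM against 12.4 and 4.60 CPM. Added over both IDs, each inhibitor library lay above each control library, while the split of reads between the IDs is uncertain.

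**Figure D5:**
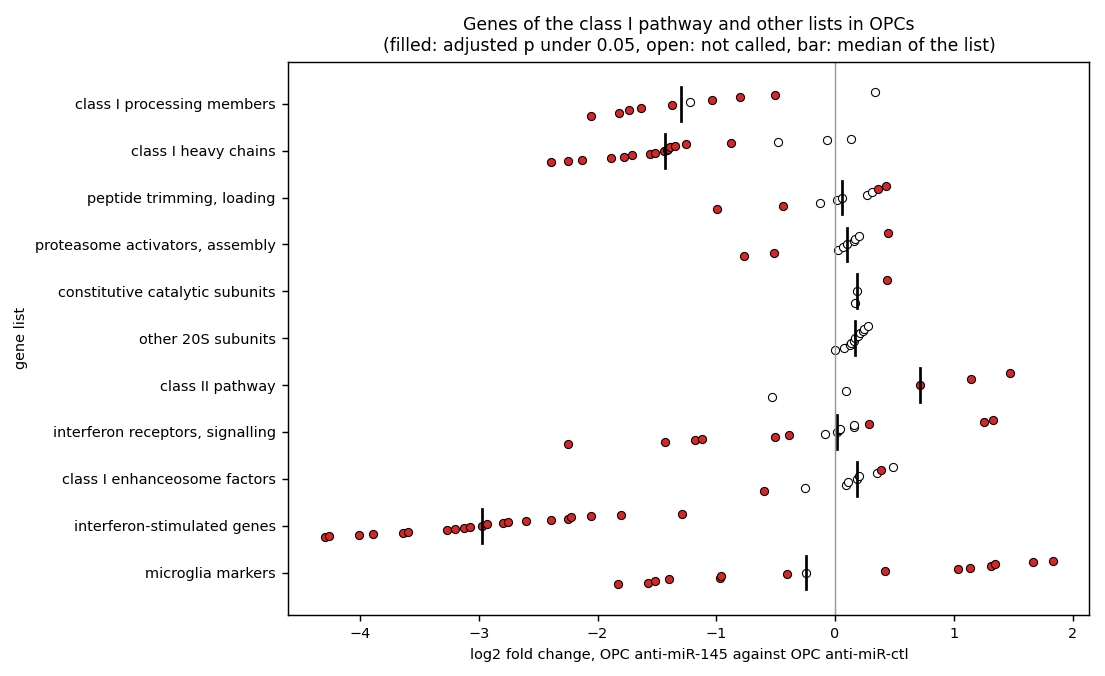
Log2 fold change of each gene of 11 lists in OPC anti-miR-145 relative to OPC anti-miR-ctl, with red points for an adjusted p under 0.05, open points for the rest and a bar at the median of each list. The 10 class I processing IDs (median -1.30) lie left of 0 except Cd74, and the class I heavy chains (-1.43) except 1, whereas the other 20S subunits (0.17) sit just right of it and microglia markers fall on both sides.

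Regulators of these genes were mixed. Of 15 genes of interferon receptors and signalling, 6 were called lower and 3 higher. Irf7, a regulator of type I interferons, was lower (-2.25, adjusted p = 0.000119), as were Irf9 (-1.44, adjusted p = 0.000133) and Stat2 (-1.12, adjusted p = 0.000196), which act together at ISREs. The cytokine signalling inhibitor Socs3 was higher (1.33, adjusted p = 0.000154). Of 9 genes of the complex that Nlrc5 joins on class I promoters and of NF-kappaB, Nfkb1 was lower (-0.60, adjusted p = 0.00240) and Rela higher (0.38, adjusted p = 0.0299), and 7 were not called. Among these 7, Rfxap is uncertain, since its reads were split between IDs in 1 control library. Its tested ID held 962 and 1372 counts in the OPC anti-miR-ctl libraries, and its other ID 518 and 0. All 21 genes of a list of interferon-stimulated genes were lower, with a median of -2.97, led by Usp18 (-3.89, adjusted p = 1.24e-05) and Isg15 (-3.64, adjusted p = 1.24e-05). Interferon transcripts were not analysed here. Of the 4 symbols of the cytokine list, only Tnf matched gene IDs, and it alone was tested. Its reads fell on either of 2 IDs, with 278 counts on one and 0 on the other in OPC anti-miR-145 replicate 1 and the reverse, 0 and 162, in replicate 2, so the fitted fold change of either ID is not given. Over both IDs it stood at 6.90 and 3.68 CPM with the inhibitor and at 37.9 and 33.7 CPM in controls.

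Immune cells also express these genes, and the microglia list did not share 1 direction in the same libraries. Of 15 markers, 7 were called higher with the inhibitor (C1qa, C1qb, C1qc, Trem2, P2ry12, Cx3cr1 and Cd68) and 7 lower (Ptprc, Aif1, Lyz2, Itgam, Tyrobp, Fcer1g and Csf1r), with a median of -0.25. On the log2 scale Itgam was lower by 1.58 (adjusted p = 0.000112) and Cx3cr1 higher by 1.83 (adjusted p = 0.000678). Of T cell, B cell and dendritic cell markers, 2 were tested, and both Itgax (-2.38, adjusted p = 0.00103) and Cd79b (-1.30, adjusted p = 0.00403) were lower. Of 4 endothelial markers, Flt1 was lower (-3.56, adjusted p = 6.44e-05), at 0.993 and 0.749 CPM with the inhibitor against 10.7 and 10.1 CPM in controls, while Kdr (0.97), Cdh5 (0.31) and Tek (-1.45) stayed under 1 CPM and were not called. Of 7 astrocyte markers 1 was called higher, Gfap (2.53, adjusted p = 6.21e-05), and 3 lower. Of 4 neuron markers 2 were called higher, with Tubb3 leading (1.18, adjusted p = 0.000233), and of 3 fibroblast or mural markers none was. Of 6 OPC markers 1 was called higher and 3 lower, and of 11 markers of maturing OLs 1 was called higher and 2 lower. The part of these cells in the class I values was not tested.

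The control groups of both stages were also compared. They differ in cell stage, medium, control oligonucleotide and time after transfection together, which cannot be told apart. In OL miR-ctl libraries 8 of the 10 IDs were lower than in OPC anti-miR-ctl and 1, Cd74, was higher, against 57.5% of 15721 genes called in either direction, 28.7% lower and 28.8% higher. At an unadjusted p under 0.05, 9 of the 10 IDs and 62.9% of all genes passed. Their median log2 fold change was -2.31, and 9 of 10 lay lower without overlap, as did 40.5% of all genes. Without replicate 1 or 2 of OPC anti-miR-ctl the genes called over the table numbered 5071 and 5016 in place of 9042, and 8 of the 10 IDs were called in both fits.

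Psmb9 differed most, at 3.22 and 2.43 CPM in OL miR-ctl libraries, 17.8-fold lower than in OPC controls (log2 fold change -4.16, SE 0.15, adjusted p = 6.08e-05). Psmb8 (4.42 and 4.97 CPM, -3.29, SE 0.11, adjusted p = 5.17e-05) and Tap1 (9.52 and 9.03 CPM, -3.27, SE 0.087, adjusted p = 3.97e-05) followed. For all 3 genes both OL libraries lay far below both OPC control libraries. Nlrc5 was 6.61-fold lower (-2.72, adjusted p = 0.000143), Tapbp 5.13-fold (-2.36, adjusted p = 9.11e-05) and B2m 4.80-fold (-2.26, adjusted p = 0.000118). Tap2 (2.73-fold, -1.45, adjusted p = 0.000251) and Psmb10 (1.90-fold, -0.93, adjusted p = 0.00078) differed least among those called. The second Tap2 ID was not called (-1.58, adjusted p = 0.112), and became so without OL miR-ctl replicate 1 (-3.38). Cd74 held 26 and 11 counts in the OL miR-ctl libraries against 6 and 6, and its call (1.70, adjusted p = 0.0401) was lost without either OPC control library (adjusted p = 0.201 and 0.158), without OL miR-ctl replicate 1 (0.170) and with DESeq2 (0.152).

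The heavy chains accompanied them, with 17 of 18 called lower in OL miR-ctl, led by RT1-S3 (-6.02, adjusted p = 3.49e-05), and 1 higher (RT1-M3-1). The constitutive subunits differed less: Psmb6 (-0.44, adjusted p = 0.0141) and Psmb5 (-0.30, adjusted p = 0.0234) were lower and Psmb7 was not called (-0.10, adjusted p = 0.400). The log2 ratio of Psmb9 over Psmb6 was -4.73 and -5.26 in OL miR-ctl, 3.74 below OPC controls on average. The ratios of Psmb8 over Psmb5 and of Psmb10 over Psmb7 lay 2.99 and 0.82 below. Psme1 (-1.65, adjusted p = 9.46e-05), Psme2 (-1.47, adjusted p = 0.000113), Tapbpl (-1.16, adjusted p = 0.000731) and Erap1 (-0.62, adjusted p = 0.00183) were lower too, and so were all 21 interferon-stimulated genes.

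In OLs, the mimic comparison addressed what more miR-145 does to differentiating cells. In the edgeR fit without a replicate term, none of the 10 IDs was called in OL miR-145 relative to OL miR-ctl, against 0.0% of 15461 genes. DESeq2 called 649 genes, none of them among the 10. With a block for the replicate number, edgeR called 4 of the 10 (Tap1, Tap2 and B2m higher, Cd74 lower) and 2272 genes, so the calls depend on that choice. The values below are without the block. At an unadjusted p under 0.05, 4 of the 10 IDs and 13.4% of all genes (2067) passed. The sign of the difference was positive for 8 of the 10, with a median of 0.43 against -0.01 for all genes. For 7 of the 10 the miR-145 libraries were higher without overlap, as for 22.9% of all genes, and for 2 they were lower, as for 24.4%.

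Tap1 stood at 15.2 and 12.9 CPM in OL miR-145 and at 9.52 and 9.03 CPM in OL miR-ctl (log2 fold change 0.60, SE 0.17, adjusted p = 0.236). Tap2 stood at 16.0 and 12.7 CPM against 9.98 and 10.0 CPM (0.52, SE 0.18, adjusted p = 0.315). In both transporter genes the mimic libraries were the higher ones, and neither passed the threshold without the replicate block. Nlrc5 was at 4.24 and 3.59 CPM against 2.44 and 2.52 CPM (0.66, SE 0.25, adjusted p = 0.351). Psmb8 was at 6.09 and 7.12 CPM against 4.42 and 4.97 CPM (0.50, SE 0.22, adjusted p = 0.399). B2m was at 499 and 326 CPM against 325 and 271 CPM (0.47, SE 0.23, adjusted p = 0.432), so the lower mimic library all but met the higher control library. Psmb9 (0.39), Tapbp (0.17) and Psmb10 (0.08) had adjusted p-values of 0.568, 0.666 and 0.860. Cd74 held 1 and 3 counts with the mimic and 26 and 11 in controls, which was not called without the block (adjusted p = 0.193). The heavy chains had a median of 0.24 and none was called, with RT1-M3-1 first (0.77, adjusted p = 0.266). Markers of some other cell types leaned the same way as the class I genes in these libraries. Higher were 7 of 7 astrocyte markers (median 0.88), 14 of 15 microglia markers (median 0.61) and 4 of 4 fibroblast or mural markers (median 2.85). So were 2 of 2 T cell, B cell or dendritic cell markers (median 1.13). The groups overlapped for 11 of the 15 microglia markers. Endothelial markers were split (2 higher, 2 lower, median -0.18), as were neuron markers (2 and 2, median -0.18). More of the OPC markers were lower (2 higher, 4 lower, median -0.26), as were markers of maturing OLs (5 and 6, median -0.19). None of these markers was called. The fibroblast or mural markers summed to 10.6 and 54.2 CPM in the OL miR-145 libraries and to 3.77 and 4.39 CPM in OL miR-ctl. The part of these cells in the class I values was not tested.

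With both mimics, none of the 10 IDs was called relative to OL miR-ctl, where edgeR called 0.0% of 15436 genes and 956 genes (6.19%), 1 ID among the 10, passed at an unadjusted p under 0.05. None of the 10 was among the 106 genes that DESeq2 called. The median of the 10 was 0.21, and 4 were higher without overlap (Tap1, Tap2, Tapbp and Psmb8), as were 17.3% of all genes, and 1 was lower (Cd74), as were 19.4%. Tap1 stood at 12.4 and 9.88 CPM (0.26, SE 0.17, adjusted p = 0.837) and Tap2 at 13.4 and 10.1 CPM (0.23, SE 0.19, adjusted p = 0.881). B2m was at 453 and 259 CPM, a pair that spans both control libraries (0.26, SE 0.28, adjusted p = 0.912). Psmb8 stood at 5.63 and 5.98 CPM (0.31), Psmb9 at 3.63 and 2.50 CPM (0.12), Psmb10 at 30.5 and 27.1 CPM (-0.01), Tapbp at 11.5 and 12.3 CPM (0.19) and Nlrc5 at 4.22 and 2.33 CPM (0.41), with adjusted p-values from 0.827 to 0.994. Relative to OL miR-145 alone, 9 IDs could be tested (Cd74 was too low) and none was called, against 0.0% of 15501 genes. The second Tap2 ID was among 228 genes (1.47%) that passed without adjustment, and DESeq2 called 9 genes, none of them among these IDs. The median was -0.22, and the log2 fold changes of Tap1 (-0.35, SE 0.18), Tap2 (-0.30, SE 0.21) and Psmb8 (-0.20, SE 0.19) were less than 2 standard errors from 0.

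Read across all 5 groups, both OPC anti-miR-ctl libraries stood above the 8 other libraries for 9 of the 10 IDs, with Cd74 as the exception. For 5 genes (Tap1, Tapbp, Psmb8, Psmb9 and Psmb10) both OPC anti-miR-145 libraries lay below the OPC controls and above all 6 OL libraries. For Tap2 and B2m the anti-miR-145 libraries overlapped with those of OL miR-145, and for B2m also with those given both mimics. For Nlrc5 they overlapped with OL miR-145 and with the group given both mimics, so inhibitor-treated OPCs and these OLs were not apart. Among the OL groups, the mean level was highest in OL miR-145 for 7 genes (Tap1, Tap2, B2m, Psmb8, Psmb9, Psmb10 and Nlrc5), of which only Tap1 and Psmb8 had no overlap with the next OL group. These levels are a description and carry no test.

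The 9 IDs that reached 1 CPM in any library also moved alike over the 10 libraries. Pearson's correlation of an ID's log2(CPM + 1) with the mean profile of the others ran from 0.726 (the second Tap2 ID) to 0.986 (Tapbp). Among 12514 other genes with a symbol and a mean of at least 1 CPM, the profile was closest to those of RT1-A1 (0.993), RT1-CE1 (0.993), Gch1 (0.992), Psme2 (0.992) and Gbp2 (0.989). RT1-A1 and RT1-CE1 are class I heavy chains, Psme2 is a proteasome activator subunit, Gbp2 an interferon-inducible GTPase and Gch1 the first enzyme of tetrahydrobiopterin synthesis. The points are libraries of 5 groups with 2 each, and the gap between the OPC controls and the rest sets most of each value, so these are descriptions.

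Tap2, Psmb8, Tap1 and Psmb9 follow each other on chromosome 20 within the class II region (RefSeq GRCr8), with RT1-DOb before them and RT1-DMb, RT1-DMa and Brd2 after them. The neighbours did not share their direction in OPCs. RT1-DMb stood at 23.2 and 18.9 CPM with the inhibitor and at 10.2 and 9.10 CPM in controls, higher where the 4 genes beside it were lower. Brd2, a chromatin reader expressed throughout, was at 239 and 236 CPM with the inhibitor and at 237 and 229 CPM in controls (0.04, adjusted p = 0.707). RT1-DOb had group means of 0.12 CPM or less and was not tested. Tapbp lies farther along the same chromosome, and B2m and Psmb10 lie on chromosomes 3 and 19, and all 3 were lower with the inhibitor.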

How the data were processed

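The authors assigned stranded mRNA reads to rat GENCODE transcripts (Rnor6.0) with Salmon 0.12.0, imported them with tximport and summed them per gene. The deposited values are estimated counts with no normalization. Per the files, 16.0% to 17.5% of a library's values were not whole, and they were rounded. The authors' DESeq2 table of OL miR-145 against OL miR-ctl holds a mean normalized signal, log2 fold changes with errors, a test score and p-values, and only its gene symbols were used.

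In edgeR 4.0.16 (R 4.3.3; TMM, glmQLFit, glmQLFTest, no replicate term), the 4 libraries of a comparison were fitted alone, 5 comparisons in all. A gene entered if 2 or more libraries held 5 or more counts, and was called if its p, adjusted by Benjamini-Hochberg over all genes tested, was under 0.05. An SE is the size of the log2 fold change divided by the square root of F. Tables and figures used Python 3.11.15, numpy 2.4.6, pandas 2.3.3 and matplotlib 3.10.9. The fit was also run on simulated counts. Their libraries were drawn independently, with no deviation shared by replicate number, so that run cannot bear on the choice about replicate numbers.

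The 9 genes and all lists (heavy chains, constitutive and other 20S subunits, activators and assembly, trimming and loading, class II, interferon signalling, cytokines, enhanceosome, interferon-stimulated genes, cell markers) were chosen with earlier results of these data known. From each list the text names up to 4 called genes with the smallest p, or up to 2 where none is called, besides the constitutive subunits, the defining cell markers and the 5 genes of closest profile; Psmb3 and Psmb1 stand for the uncalled 20S list, and RT1-M3-1, RT1-M6 and the chromosome neighbours were in part named after their values were seen. Alternatives were DESeq2 1.42.0, its size factors, no filter on low counts, all 5 groups in 1 fit, a replicate block, and leaving out each library. Deviations of same-numbered libraries correlated at 0.236 to 0.422 in the comparisons among OL groups. In the comparisons with OPC groups the correlations were -0.0738 and 0.0295. No source used here says that a number marks 1 shared culture across groups, and so the numbers were not taken as pairs in the main fit. Replicates differed by more than counting error in every group, and none was a duplicate. Precision is limited by 2 libraries per group, and for Cd74 and the second Tap2 ID by counts.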

Additional observations from a re-analysis of the deposited data

How the results depend on the processing

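Of the alternative log2 fold changes of single IDs, 411 kept direction and side of the threshold, 7 gained a call, 7 lost it and 16 changed sign. Of the 7 lost calls, 6 fell in the control comparison and 1 in the OPC comparison. With a replicate block, 4 of the 10 IDs were called in OL miR-145 against OL miR-ctl (Tap1, Tap2, B2m higher, Cd74 lower) where the fit without it called 0, and the genes called numbered 2272 there, 132 in OL miR-145 miR-219 against OL miR-ctl and 184 in OL miR-145 miR-219 against OL miR-145, in place of 0. The block also gave the second Tap2 ID a call in the OPC comparison and took that of Cd74 in the control comparison, and it changed no other call of the 10. DESeq2 called 649, 106 and 9 genes in these OL comparisons, the fit of all 5 groups called 79 in the first, and no filter on low counts called 1 in the second. In the OPC comparison all 5 groups in 1 fit called 2662 genes in place of 4348.

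Leaving out each library, 7 to 9 IDs were called in the OPC comparison, 8 to 9 in the control comparison and 0 in each OL comparison. Genes called ranged from 2403 to 7124 in the OPC comparison and from 5016 to 10595 in the control comparison, and were 0 in the OL comparisons. A lone library is then assumed to vary like the other group. The subunit ratio differences in OPCs ranged from -2.35 to -2.05 (Psmb8), -2.09 to -1.90 (Psmb9) and -0.71 to -0.64 (Psmb10).

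Sign changes were all among uncalled values of OL comparisons, given here as ranges with each library left out. In OL miR-145 against OL miR-ctl, Psmb10 ranged from -0.10 to 0.24. In OL miR-145 miR-219 against OL miR-ctl the second Tap2 ID ranged from -0.87 to 1.76 (0.10 with the replicate block), B2m from -0.19 to 0.60, Psmb9 from -0.17 to 0.35, Psmb10 from -0.093 to 0.061 and Nlrc5 from -0.079 to 0.76. In OL miR-145 miR-219 against OL miR-145, Tapbp ranged from -0.048 to 0.065, B2m from -0.67 to 0.13, Psmb10 from -0.25 to 0.075 and Nlrc5 from -0.75 to 0.099. The cause was not tested. TMM and size factors shifted the median of all genes by at most 0.00535.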
